A study of Mus musculus with 9 samples.

Results

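Phf10 encodes a subunit of PBAF, a chromatin remodelling complex of the BAF (mammalian SWI/SNF) family, and is read here from 1 of the 53379 rows of the deposited count table. That row carries the name of the gene on the other strand, 1600012H06Rik, and its counts are read as Phf10 because the counts of this table lie mostly in rows opposite a coding exon. The row was chosen from its measured values in these same libraries, so its differences between groups are given as a description, without a test. RNA was sequenced from MOVAS, an immortalised aortic smooth muscle line of C57BL/6 mice, in 9 libraries. The 3 control libraries came from untreated cells. The 3 DON libraries came from cells given DON, which resembles glutamine and inactivates enzymes that use it, for 24 h, at 50 mM as labelled. The 3 DON plus glutamate libraries came from cells given DON in the same way together with glutamate, at 2 mM as labelled. The catalogue number that the labels set beside glutamate may be that of another compound, which could not be settled here, so glutamate is the labels' name throughout. All groups share 1 cell line and a medium with serum and geneticin, and the labels do not say whether replicates were separate cultures, so the spread behind each p-value is that of libraries and may be technical. The series concerns glutamine use and the artery wall, and the comparisons ask what the inhibitor changed and what added glutamate changed under it.

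BAF complexes spend ATP to slide or eject nucleosomes and so open promoters and enhancers to transcription factors. The family has a canonical form, marked by ARID1A or ARID1B and by DPF proteins, a non-canonical form with BRD9 and BICRA or BICRAL, and PBAF, marked by PBRM1, ARID2, BRD7 and PHF10. PHF10 carries a pair of PHD fingers, zinc-binding folds that read histone tails, near its carboxyl end. It is known from dividing neural progenitors, where it is exchanged for DPF1 or DPF3 as neurons mature. In smooth muscle the BAF ATPases are known to work with serum response factor and myocardin at contractile genes.

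By GENCODE M21, Phf10 is a minus-strand gene at chr17:14945009-14961273 of mm10, and 1600012H06Rik, a protein-coding gene, runs on the plus strand at chr17:14943184-14959570. Their exons overlap by 470 bp in 4 stretches of 176, 39, 146 and 109 bp. The main Phf10 transcript, Phf10-201, has 12 exons and 497 codons, and 429 bp of it lie opposite exons of the row. The 176 bp stretch is the whole of exon 12, with the end of the coding sequence and the 3′ UTR. The 146 bp stretch lies in exon 8, and the 109 bp stretch covers all of exon 2. The 39 bp stretch lies in the last exon of Phf10-203, annotated as a target of nonsense-mediated decay, which has 292 bp opposite the row. The retained-intron transcripts Phf10-202, Phf10-204 and Phf10-205 have 109, 171 and 87 bp there. One count per row therefore cannot tell these transcripts apart.

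The coding bases through which the row reads Phf10 are shown because they are the annotated coding sequence of Phf10 that the row can count. Each is the strand of the Phf10 mRNA, 5′ to 3′, from the GENCODE M21 transcript sequences, and capitals mark the bases that lie opposite an exon of the row.
Phf10 exon 2, chr17:14959419-14959525, minus strand: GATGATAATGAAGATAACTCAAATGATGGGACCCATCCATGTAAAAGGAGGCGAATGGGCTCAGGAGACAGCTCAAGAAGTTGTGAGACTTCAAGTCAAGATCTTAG
Phf10 exon 8, chr17:14952620-14952773, minus strand: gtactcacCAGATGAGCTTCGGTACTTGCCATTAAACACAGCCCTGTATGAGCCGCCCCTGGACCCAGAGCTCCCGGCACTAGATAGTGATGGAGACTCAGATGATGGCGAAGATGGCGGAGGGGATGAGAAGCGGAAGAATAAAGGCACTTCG
Phf10 exon 12, coding part, chr17:14945099-14945184, minus strand: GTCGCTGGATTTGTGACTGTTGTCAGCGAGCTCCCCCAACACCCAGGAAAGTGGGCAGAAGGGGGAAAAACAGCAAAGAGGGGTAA
Exon 2 holds codons 29 to 64, split codons included, exon 8 holds codons 267 to 318, and the part of exon 12 shown runs from codon 470 to the stop codon. The row thus touches the amino-terminal part, the middle and the carboxyl end of the protein's coding sequence.

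**Figure D1:**
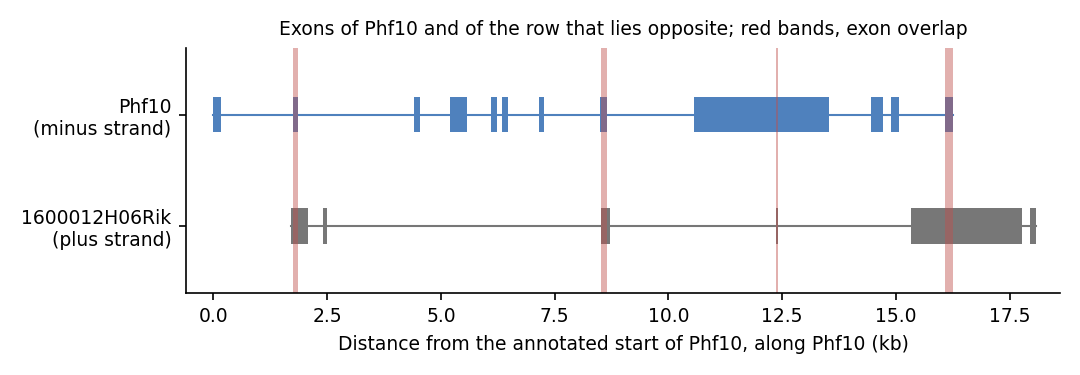
Exon blocks of Phf10 (blue, minus strand) and of 1600012H06Rik (grey, plus strand) by distance in kb from the annotated start of Phf10, with the 4 stretches of exon overlap as red bands. The overlap of 470 bp falls near the start, in the middle and at the end of Phf10, and the large grey block runs past the end of Phf10.

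The row has 3294 bp of exons, of which 470 bp (14.3%) lie opposite exons of Phf10, 1181 bp (35.9%) opposite its introns and 1643 bp (49.9%) beyond its annotated end. Unspliced Phf10 RNA, RNA running past the end of Phf10 and, should the strand reading be wrong, RNA of 1600012H06Rik itself would all be counted in this row. Their parts in the values were not tested. No other row of the table lies opposite Phf10 (0 rows), so the reading could not be checked on another stretch of the gene. Of the 8 other rows within 250000 bp of the locus only Ermard passed the filter on low counts, with 36 to 57 counts per library, and the remaining rows held at most 5 counts in any library.

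Libraries held 1132822 to 1342286 counts in all. The 10.3% of rows that lie opposite a coding exon held 88.0% ± 0.40 (SD, n = 9) of all counts. Of the smooth muscle markers, 2 of 11 were measured on the opposite strand, Tagln, an actin-binding protein, at 216 to 407 counts and Smtn, a cytoskeletal protein, at 608 to 1081. Des, another of the 11, had an opposite-strand row (Gm15179) with 0 counts in every library. Of 6 fibroblast markers only Pdgfra was measured, at 3 to 22 counts, and none of 5 endothelial, 5 leukocyte or 4 epithelial markers was measured (0 in each list). The leukocyte marker Cd3e had an opposite-strand row (AC122305.3) with 0 counts in every library. So of these types only fibroblasts and leukocytes could be checked, by 1 gene each. In DON against control Tagln fell by 0.52 on the log2 scale (SE 0.13, adjusted p = 0.0132, edgeR). Without control replicate 2 or DON replicate 3 this call was lost (adjusted p = 0.0871 and 0.0694). Pdgfra fell by 1.75 (SE 0.44, adjusted p = 0.0147), a call lost without control replicate 1, DON replicate 2 or DON replicate 3 (adjusted p = 0.0606, 0.0899 and 0.0875), and its difference was -2.5 without DON replicate 1. Smtn was at -0.30 ± 0.10 (adjusted p = 0.0607, and between 0.0304 and 0.247 in the alternatives). Tagln was at 0.51 ± 0.13 in DON plus glutamate against DON (adjusted p = 0.182, and between 0.00461 and 0.698 in the alternatives). It passed there with low-count rows kept (adjusted p = 0.00461), and when replicate 3 of the glutamate group was dropped (adjusted p = 0.0129). In DON plus glutamate against control, where Phf10 was also higher than in control, Tagln was at 0.00 ± 0.12 (adjusted p = 0.996). Smtn was at -0.31 ± 0.10 in that comparison (adjusted p = 0.0736, and between 0.0277 and 0.316 in the alternatives). Pdgfra was at -1.17 ± 0.41 there (adjusted p = 0.131). The part of these markers in the values of Phf10 was not tested. In these bulk samples, fewer cells with a transcript and less transcript per cell cannot be told apart. By edgeR's quasi-likelihood test over 4731 rows, 299 changed in DON against control, 125 higher and 174 lower at an adjusted p under 0.05, or 180 higher and 126 lower when scaled by library totals. Against control, 153 rows changed in DON plus glutamate, 67 higher and 86 lower, or 104 higher and 50 lower by library totals. Adding glutamate to DON changed 7 rows.

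Phf10 was higher in every library that received DON than in every untreated library, with or without glutamate. The row held 2050, 2021 and 2042 counts in the control libraries, 3557, 3957 and 3767 in DON, and 3538, 3502 and 3030 in DON plus glutamate. The last of these comes from the library with the fewest counts in all. As normalised counts (CPM, counts per 1000000 with edgeR's TMM factors), control replicates 1 to 3 stood at 1580, 1587 and 1596 CPM. The DON replicates stood at 2661, 3059 and 2855 CPM, and the DON plus glutamate replicates at 2666, 2607 and 2676 CPM. Both treated groups lay wholly above the control libraries, and they overlapped each other.

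The group means were 1587 ± 7.98 CPM in control, 2858 ± 199 in DON and 2650 ± 37.6 in DON plus glutamate (SD, n = 3). DON against control gave a 1.80-fold higher level, a log2 difference of 0.85 ± 0.07 (SE). In that comparison the groups did not overlap in 24.4% of the 4731 rows, and 6.32% had an adjusted p under 0.05. DON plus glutamate against control, which shares the control libraries with the first comparison, gave a 1.67-fold higher level, a log2 difference of 0.74 ± 0.07. There 21% of rows had no overlap between groups and 3.23% had an adjusted p under 0.05. Beside these, the median log2 difference of all rows was 0.01 in the first comparison and 0.00 in the other.

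The libraries with and without glutamate overlapped. DON plus glutamate against DON gave a log2 difference of -0.11 ± 0.07 (SE), with 1 of the 3 glutamate libraries below all DON libraries and none above them. In that comparison 11.5% of rows had no overlap between groups and 0.148% had an adjusted p under 0.05. The 3 DON libraries were the most spread. Their coefficient of variation was 6.97%, where counting error alone gives 1.63%, against 1.42% in DON plus glutamate and 0.503% in control, where counting error gives 1.73% and 2.22%. Spreads of 3 libraries are themselves uncertain, and those of the other groups lie below counting error, so they do not rank how exactly the levels are placed. Without DON replicate 2, the highest library, the log2 difference from control was 0.79 and that of DON plus glutamate from DON was -0.06.

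**Figure D2:**
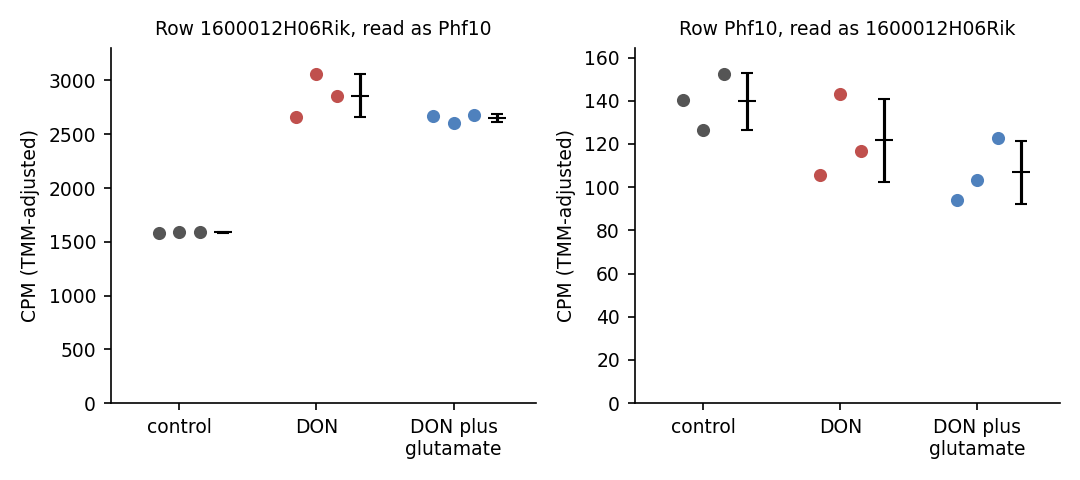
CPM in each library (points, replicates 1 to 3 from left to right) with the group mean and SD (bars, n = 3), for row 1600012H06Rik, read as Phf10 (left), and for row Phf10, read as 1600012H06Rik (right). On the left the control libraries sit at 1580 to 1596 CPM and the treated ones at 2607 to 3059, and on the right the levels run from 94.2 to 152 CPM.

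Per row, with no allowance for length, the count was among the larger ones. At a mean of 2365 CPM over the 9 libraries, the row was the 36th most abundant of 2438 opposite-strand genes tested, whose median was 103 CPM. By the size of its log2 difference in DON against control it was 39th from the top of those 2438 genes, and 44th in DON plus glutamate against control. By the difference of DON plus glutamate from DON it was 1795th. These ranks describe a row that was picked for its values.

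The row named Phf10 gives a measurement that the choice of 1600012H06Rik did not use. It counts reads on the plus strand, which by the same reading belong to 1600012H06Rik. Of its 4914 bp of exons only 470 bp lie opposite exons of that gene. The protein-coding transcripts 1600012H06Rik-201, 1600012H06Rik-202 and 1600012H06Rik-203 have 176, 176 and 0 bp there, and the processed transcript 1600012H06Rik-204 has 294 bp. The part of each transcript and of unspliced RNA in the values was not tested. The row named Phf10 held 182, 161 and 195 counts in control, 141, 185 and 154 in DON, and 125, 139 and 139 in DON plus glutamate. Its means were lower in both treated groups than in control, at 140 ± 13.0 CPM in control, 122 ± 19.3 in DON and 107 ± 14.6 in DON plus glutamate (SD, n = 3). By edgeR's quasi-likelihood test with Benjamini-Hochberg adjustment, the row named Phf10 was at log2 -0.20 ± 0.13 (SE) in DON against control (adjusted p = 0.430), and at -0.19 ± 0.13 in DON plus glutamate against DON (adjusted p = 0.866). For DON plus glutamate against control the value was -0.39 ± 0.13 (adjusted p = 0.106, range over the alternatives 0.0686 to 0.317). All 3 glutamate libraries lay below all control libraries, at 94.2 to 123 against 126 to 152 CPM, in a comparison where 21% of all rows had no overlap between groups.

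Counts on both rows of the locus can be set against each other within a library, which needs no scaling between libraries. Row 1600012H06Rik held 11.3, 12.6 and 10.5 times the counts of row Phf10 in the control replicates, 25.2, 21.4 and 24.5 times in DON, and 28.3, 25.2 and 21.8 times in DON plus glutamate. The ratio was 11.4 ± 1.05 in control, 23.7 ± 2.03 in DON and 25.1 ± 3.25 in DON plus glutamate (SD, n = 3). The ratios of the treated groups overlapped. The counts above the line are those of the row chosen by its values, so the ratio is a description too and no separate support. Each row also covers only part of the exons of the gene read from it, so the ratio does not compare gene levels. The share of Phf10 reads given the wrong strand, which would enter the row named Phf10, was not measured. The row of the neighbour Ermard lies opposite exons of more than 1 coding gene, so it is given under its own name and read as no gene. It was at log2 0.01 ± 0.19 in DON against control (adjusted p = 0.983, edgeR), 0.17 ± 0.18 in DON plus glutamate against DON (adjusted p = 0.912) and 0.18 ± 0.19 in DON plus glutamate against control (adjusted p = 0.701).

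None of the other measured BAF genes passed the test in any of the 3 comparisons. Of 27 BAF genes listed beside Phf10, 7 were measured on the opposite strand, and 0 of 7 changed in DON against control by edgeR's quasi-likelihood test (6.32% of all rows), with 1 of 7 at an unadjusted p under 0.05. DESeq2 called 0, giving no adjusted p for 2 of the 7. The 7 had a median log2 difference of 0.09, beside 0.01 over all rows, with 1 of 7 showing no overlap between groups (24.4% of all rows). With glutamate added to DON, 0 of 7 changed (0.148% of all rows), with 0 at an unadjusted p under 0.05 and 0 by DESeq2, and the median was -0.02. Between DON plus glutamate and control, 0 of 7 changed (3.23% of all rows), with 0 at an unadjusted p under 0.05 and 0 by DESeq2, which gave no adjusted p for 2, and the median was 0.05. With 7 genes, counts of 0 are near these shares. DESeq2 called 231, 2 and 140 of all 4731 rows in the 3 comparisons, in the order above. No share of all rows was taken for the unadjusted p, so nothing is read from those counts. Of the other listed genes, 19 had no row that reads them alone, and Smarcc1, a core scaffold subunit, had a row (Dhx30) of at most 14 counts, under the filter. The ATPases Smarca4 and Smarca2 and the PBAF partners Pbrm1, Arid2 and Brd7 are among those 19, so the subunits that set PBAF apart were not measured beside Phf10.

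Bicral, a subunit of the non-canonical complex, was the gene with no overlap between groups. Its row (Gm26904, 772 bp of overlap) stood at 101, 104 and 91.4 CPM in control, 115, 116 and 130 in DON, and 107, 118 and 98.0 in DON plus glutamate. All 3 DON libraries lay above all control libraries, and the glutamate libraries overlapped both groups. The log2 difference in DON against control was 0.29 ± 0.12 (SE; 95% interval 0.05 to 0.53), which did not pass by edgeR (adjusted p = 0.164, range over the alternatives 0.0911 to 0.752). Its paralogue Bicra (row Gm38948, 88 bp) was at -0.09 ± 0.15 (interval -0.40 to 0.23; adjusted p = 0.814).

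The DPF genes encode PHD finger proteins related to Phf10 that take its place in the canonical complex. Dpf1 (row Gm44632, 96 bp) had 26 to 51 counts per library and was at log2 0.43 ± 0.22 in DON against control (95% interval -0.02 to 0.89; edgeR adjusted p = 0.288). Dpf2 (row Gm42067, 79 bp) had 6 to 16 counts and was at 0.39 ± 0.35 (interval -0.34 to 1.11; adjusted p = 0.618). The intervals of both genes reach to a difference as large as that of Phf10. Dpf2 in DON plus glutamate against control was at 0.44 ± 0.35 (adjusted p = 0.609), with 10.6 to 12.1 CPM against 4.69 to 10.2, the 1 of 7 genes without overlap in that comparison (21% of all rows).

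The core and accessory subunits had smaller SE than Dpf1 and Dpf2. Smarcd1, a core subunit that contacts transcription factors (row Gm17349, 287 bp), stood at 87.8, 92.7 and 93.0 CPM in control and 88.3, 97.4 and 93.2 in DON. Its log2 difference was 0.03 ± 0.12 (95% interval -0.21 to 0.27; edgeR adjusted p = 0.938). Its paralogue Smarcd3, known from heart and muscle (row Chpf2, 2466 bp), was at 0.06 ± 0.10 (interval -0.14 to 0.25; adjusted p = 0.813). That row also overlaps another row on its own strand, so reads could be split between them. Bcl7c, an accessory subunit (row Mir762, 76 bp), was at 0.09 ± 0.12 (interval -0.16 to 0.34; adjusted p = 0.766). The upper ends of these 3 intervals, like those of Bicral and Bicra, lie below the log2 difference of 0.85 of Phf10. That value comes from a row chosen by its values, so this is a description and no test.

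**Figure D3:**
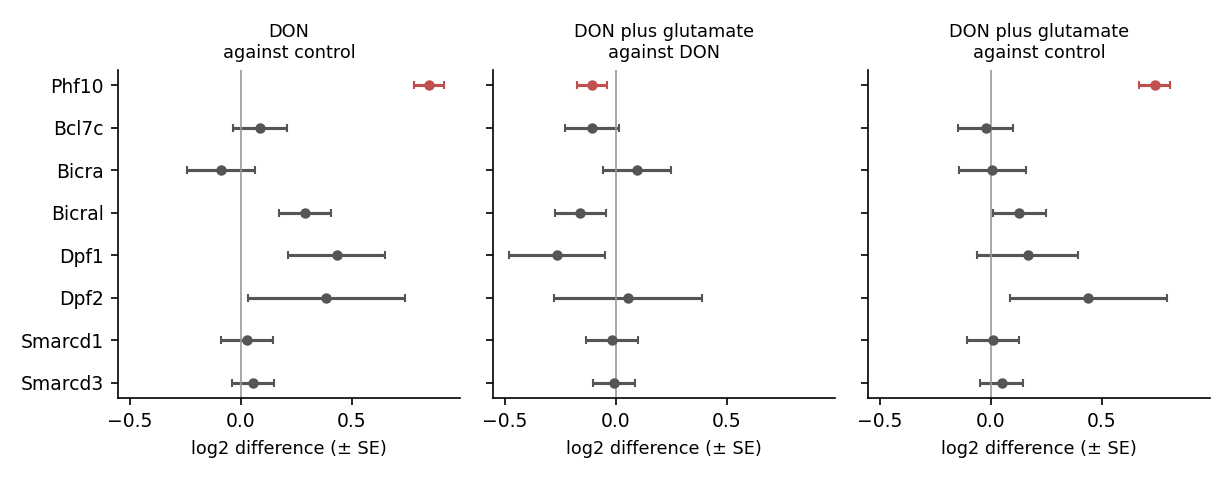
Log2 difference ± SE (edgeR, 3 libraries per group) in the 3 comparisons for Phf10 (red, a description because the row was chosen by its values) and the 7 other measured BAF genes (grey). Phf10 stands at 0.85, -0.11 and 0.74, and the grey points run from -0.27 to 0.44.

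Between genes, levels can be compared only per length. Phf10 stood at 5032 CPM per kb of exon overlap over the 9 libraries, Bcl7c at 2744, Bicra at 647, Smarcd1 at 321, Dpf1 at 309, Smarcd3 at 206, Bicral at 141 and Dpf2 at 128. This order depends on the length used, because most of the row read as Phf10 lies outside Phf10 exons. Per kb of all exons of the row, Phf10 stood at 718 CPM, below Bcl7c at 2744 and above Smarcd1 at 307. Its place against Bcl7c thus turns with the length. The row of Bcl7c has just 76 bp of exons, so its level per kb depends on how reads running past the row were counted, which was not tested.

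Other chromatin complexes were read in the same way. Of 127 genes in 5 further lists, of the ISWI, CHD and NuRD, INO80, SRCAP and TIP60, and Polycomb complexes and of other PHD finger proteins, 27 were measured. In DON against control 0 of 27 changed by edgeR (6.32% of all rows), with 3 at an unadjusted p under 0.05 and 0 by DESeq2, which gave no adjusted p for 8. Their log2 differences ran from -0.46 to 0.98 with a median of 0.01. Between DON plus glutamate and DON 0 of 27 changed (0.148% of all rows), with 4 at an unadjusted p under 0.05 and 0 by DESeq2. Between DON plus glutamate and control 0 of 27 changed (3.23% of all rows), with 3 at an unadjusted p under 0.05 and 0 by DESeq2, which gave no adjusted p for 10. With so few genes, counts of 0 are near these shares. The groups did not overlap in 6, 7 and 7 of the 27 genes in these 3 comparisons, in the same order. Over all rows the shares without overlap were 24.4%, 11.5% and 21%. For the unadjusted p no such share was taken, so nothing is read from those counts.

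Among these, Chd2, a remodelling ATPase (row Gm44686, 8 to 25 counts), was at log2 0.98 ± 0.33 in DON against control (edgeR adjusted p = 0.0803), at 15.4 ± 3.29 against 7.77 ± 2.61 CPM (SD, n = 3). It passed when only opposite-strand genes were fitted (adjusted p = 0.0473, range over the alternatives 0.0473 to 0.285). In the same list, of CHD and NuRD genes, Gatad2b, a NuRD subunit (row 4930537H20Rik), was at -0.14 ± 0.22 (adjusted p = 0.798) and Chd9 (row Gm45641) at -0.07 ± 0.35 (adjusted p = 0.948).

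Of the INO80 and SRCAP subunits, Mcrs1 (row 1700120C14Rik) was at log2 -0.30 ± 0.10 in DON against control (edgeR adjusted p = 0.0758). Znhit1 (row Plod3) was at -0.23 ± 0.15 (adjusted p = 0.445). Srcap, the ATPase that deposits the histone variant H2A.Z (row 1700008J07Rik), was at -0.25 ± 0.17 (adjusted p = 0.474) and, in DON plus glutamate against control, at -0.56 ± 0.18 (adjusted p = 0.0841). For each of these 3 genes all DON libraries lay below all control libraries. They were the 3 of 9 measured genes of the list without overlap in that comparison (24.4% of all rows). These 3 were picked by their p. Over all 9 measured genes of the list, 5 were above 0 in DON against control, with a median of 0.05. The groups did not overlap for 5 of the 9 in DON plus glutamate against DON (11.5% of all rows). In DON plus glutamate against control this held for 4 of the 9 (21% of all rows). By edgeR 0 of the 9 passed in either comparison.

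Of the PHD finger genes outside BAF, Jade1, part of a histone acetyltransferase complex (row Gm31266, 20 to 39 counts), was at log2 -0.46 ± 0.22 in DON against control (edgeR adjusted p = 0.246) and at 0.50 ± 0.22 in DON plus glutamate against DON (adjusted p = 0.707). Brpf1, a scaffold of another such complex (row Gm15492), was at 0.17 ± 0.10 (adjusted p = 0.387) and -0.34 ± 0.10 (adjusted p = 0.456) in the same comparisons. Neither gene passed in these comparisons.

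Of the Polycomb genes, Suz12, a core subunit of the H3K27 methyltransferase complex (row Gm26563), was at log2 -0.13 ± 0.07 in DON against control (edgeR adjusted p = 0.372), and its partner Eed (row E230029C05Rik) at -0.34 ± 0.21 (adjusted p = 0.403). Kdm2b, which recruits a Polycomb complex to CpG islands (row Rnf34), was at 0.11 ± 0.09 (adjusted p = 0.572). Of the ISWI list, the histone chaperones Rbbp7 (row Txlng) and Rbbp4 (row Gm26722) were at -0.32 ± 0.21 (adjusted p = 0.461) and -0.05 ± 0.08 (adjusted p = 0.803), and Chrac1 (row Ago2) at 0.29 ± 0.30 (adjusted p = 0.666).

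The genes whose pattern was most like that of Phf10 were sought among 1617 opposite-strand genes with a mean of at least 50 CPM, by the root mean square difference in log2 CPM, centred on the control mean, over the 9 libraries. They are given as a description, with no test, since likeness chose them. Tspyl4, a member of the nucleosome assembly protein family, came first at a difference of 0.04 (row AC113059.1, 1466 bp). It stood at 133, 127 and 130 CPM in control, 218, 262 and 224 in DON, and 228, 221 and 226 in DON plus glutamate. As for Phf10, DON replicate 2 was the highest library. Its means were 130 ± 3.05, 235 ± 23.9 and 225 ± 3.72 CPM (SD, n = 3), with log2 differences of 0.85 in DON against control and -0.06 in DON plus glutamate against DON.

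Next came Ifrd1, a transcriptional co-regulator (difference 0.11; row Gm7008), which stood at 328, 354 and 328 CPM in control, 546, 564 and 555 in DON, and 550.0, 539.6 and 496 in DON plus glutamate. Slc25a33, a mitochondrial carrier of pyrimidine nucleotides (difference 0.12; row Gm13068), stood at means of 192 ± 15.3, 316 ± 18.7 and 308 ± 8.60 CPM in the same order of groups (SD, n = 3). Both were higher in all 6 treated libraries than in any control library. The last of the 5 were Cntd1, a cyclin-like protein of meiosis (difference 0.18; row Becn1), at 47.3 ± 5.09, 74.0 ± 4.19 and 70.2 ± 0.48 CPM, and Cd3eap, an RNA polymerase I subunit (difference 0.19; row Ercc1), at 68.8 to 81.7 CPM in control, 105 to 133 in DON and 105 to 123 in DON plus glutamate. The rows of Cntd1 and Cd3eap held 57 to 101 and 88 to 175 counts. Whether reads of Becn1 and Ercc1 given the wrong strand make up part of them was not tested. The median difference over the 1617 genes was 0.68, and the next gene after these 5 stood at 0.19.

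**Figure D4:**
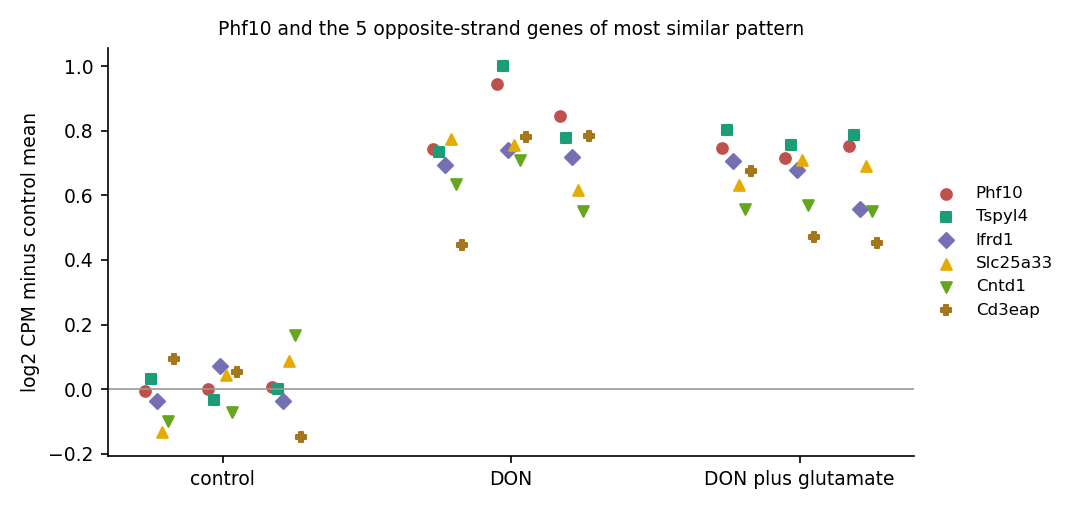
Log2 CPM minus the control mean in each of the 9 libraries (replicates 1 to 3 from left to right within a group) for Phf10 and the 5 opposite-strand genes whose pattern is most like it. The points of Phf10 and Tspyl4 lie close together, at root mean square difference 0.04, and all 6 genes are higher in the treated libraries.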

How the data were processed

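RNA from 9 MOVAS libraries was measured by sequencing. The authors deposited raw integer counts, 1 value per gene row and library, made with STAR and HTSeq on mm10, per the submitters' processing notes; versions and the strand setting are not given in the sources used here. No strand was therefore taken from the labels: 53274 of 53379 rows matched GENCODE M21 on mm10, and a row was read as the 1 protein-coding gene whose exons it overlaps on the other strand, 50 bp or more (4115 genes by the row of highest mean count, of which 2438 were tested). Samples were grouped by title. The quasi-likelihood test of edgeR 4.0.16 (R 4.3.3) was run, two-sided, with filterByExpr and TMM, 6 residual degrees of freedom and a threshold of 0.05 on the p adjusted by Benjamini and Hochberg, in 1 fit of all groups and rows, which was tested on simulated data. SE are those implied by the test statistic. Alternatives were DESeq2 1.42.0 size factors and Wald test, library totals, no filter, the replicate block, opposite-strand genes only, an overlap of 200 bp, a fit of just the compared groups, and leaving out every library in turn.

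The row, the gene lists and the tests were chosen with earlier results of these data known. Genes named are the row and its opposite, all measured BAF genes, from 5 other lists up to 3 each of smallest p in DON against control, neighbours within 250000 bp and the 5 most alike. Precision is limited by counting for rows of few counts. Intervals cover the spread between libraries. Reads of the gene that a row is named after would also be counted in it if given the wrong strand, and their part was not measured.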

Additional observations from a re-analysis of the deposited data

How the results depend on the processing

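The log2 difference of Phf10 kept its sign in the 16 alternative settings of each comparison. It ran from 0.83 to 0.89 in DON against control, or 0.79 to 0.90 without 1 library. In DON plus glutamate against DON it ran from -0.11 to -0.10, or -0.16 to -0.06 without 1 library, and in DON plus glutamate against control from 0.73 to 0.79, or 0.73 to 0.75. The count of changed BAF genes was 0 in the 17 settings of each comparison, out of 7 genes, or 3 at an overlap of at least 200 bp. With so few genes, counts of 0 are near the shares of all rows. The count of changed rows in DON against control was 173 to 318 without 1 library, against 299: 183, 176, 173 and 182 without control replicate 1, control replicate 2, DON replicate 2 and DON replicate 3. In DON plus glutamate against control it was 88 to 178, against 153: 99 and 88 without control replicate 2 and DON plus glutamate replicate 2. In DON plus glutamate against DON it was 15 with no filter on low counts, 1 with opposite-strand genes only, 3 with only the groups compared, 2 by DESeq2 and 1 to 11 without 1 library, against 7: 1 when either DON replicate 3 or replicate 2 of the glutamate group was left out, and 11 without DON plus glutamate replicate 3. The opposite-strand setting tests fewer rows than the main fit, and the cause of these shifts was not tested in any setting. With the replicate number as a block, the counts were 221, 6 and 117 and Phf10 was at 0.85, -0.11 and 0.74. The labels do not say that equal numbers share a culture, and 1 of 9 same-numbered pairs had a correlation of deviations over 0.1 (range -0.19 to 0.15), so the numbers were not taken as pairs. Replicates differed by more than sampling noise in a chi-square test of their counts.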
